A study of Mus musculus with 26 samples.

Results

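The nuclear receptor family was followed as 31 named genes, of 19638 genes listed in at least 1 of 26 mouse liver libraries. The 31 genes were given by name and followed across all 8 sample groups. They were set in 7 roles, which are bile acid and xenobiotic sensors (6 genes), oxysterol and fatty acid sensors (4), retinoid receptors (6), thyroid hormone receptors (2), steroid hormone receptors (3), orphan receptors (8) and immediate early receptors (2). Of the 31 genes, 28 were listed in every library, and Vdr, Nr2f1 and Nr4a2 were missing from 1 or more libraries and were set to 0 there.

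RNA of C57BL/6 livers was sequenced in groups of 3 or 4. Young livers carried Alb-Cre, a recombinase driven by the albumin promoter and so directed to hepatocytes, and were labelled Hdac3-/-. They were taken on day 0 (0d, n = 3), day 7 (7d, n = 4), day 21 (21d, n = 4) or day 50 (50d, n = 3) following sPH, given in the labels as successive PH, in mice 2 to 3 months of age. Livers labelled wild type were of the same age (WT, n = 3). The labels leave unsaid whether WT livers were operated on and at which point of the operations day 0 falls. Older tissues were tumors that arose in recipients labelled Fah-/- (Fah-/- tumor, n = 3, 12 months), spontaneous tumors of Alb-Cre Hdac3-/- mice (Hdac3-/- tumor, n = 3, 10 months) and the non-tumor tissue beside tumors, also Alb-Cre Hdac3-/- (adjacent, n = 3, 10 months). By label, adjacent tissue therefore shares its genotype with the Hdac3-/- tumors. Whether it does so with the Fah-/- tumors is not given, and no older wild-type liver was analysed here. Neither the cells that gave rise to the Fah-/- tumors nor whether replicates were separate animals is stated in the labels, so p-values measure the spread between these libraries, which may in part be technical.

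Nuclear receptors are transcription factors, many of which are switched by a small fat-soluble ligand such as a bile acid, an oxysterol, a retinoid or a hormone. Several of them pair with a retinoid X receptor on DNA, and the classical binding unit is the hexamer AGGTCA, alone or repeated. In the absence of ligand some of them hold a corepressor such as NCoR, whose complex contains the histone deacetylase HDAC3. In liver they are known for setting bile acid, drug, lipid and hormone metabolism.

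Library totals ran from 8602526 to 11094627 counts. The whole-gene count of Hdac3 was 43.8 to 49.6 CPM (counts scaled to library size with the TMM factors of edgeR) in 0d livers, against 31.5 to 36.5 CPM in WT livers. It lay between 36.6 and 52.6 CPM in the later Hdac3-/- livers and between 43.9 and 67.0 CPM in the older tissues. A count over the whole gene does not separate a deleted part from the rest of the transcript and so does not check the deletion. Fah was at 310.5 to 509 CPM in tumors labelled Fah-/- and at 283 to 482 CPM in Hdac3-/- tumors. Adjacent tissue had 878 to 1132 CPM. The presence of Fah transcripts in tumors labelled Fah-/- limits what that label says of the cells sequenced. The 8 hepatocyte markers were detected in every group, summed to 28938 to 162972 CPM and had no member at 0. Y-linked transcripts were present in each of the 11 libraries from 7d, 21d or 50d livers, in Hdac3-/- tumor replicate 3 and in adjacent replicate 2 (sums of 20.6 to 81.4 CPM), and were at 0.3 CPM or less in the other 13 libraries, which were the other older tissues, all WT and all 0d libraries.

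Promoter windows of 300 bases (250 before and 50 after a RefSeq gene start, GRCm38.p6, written in the direction of the gene) are shown for 5 genes. Nr1i3, Nr1h4 and Rxrg were lower in 0d livers than in WT livers and higher in 7d and 21d livers than in 0d livers. Ppard and Vdr are shown because they stand apart from that pattern in 50d livers and in tumors. The hexamer AGGTCA, or TGACCT on the opposite strand, is in capitals where it occurs. Rxrg has 2 annotated starts. The Nr1h4 window lies at an annotated start inside the gene. The gene spans chr10:89454234-89533645 on the minus strand, and the window is away from its outer start near 89533645.
Nr1i3 window, chr1:171213720-171214019, plus strand: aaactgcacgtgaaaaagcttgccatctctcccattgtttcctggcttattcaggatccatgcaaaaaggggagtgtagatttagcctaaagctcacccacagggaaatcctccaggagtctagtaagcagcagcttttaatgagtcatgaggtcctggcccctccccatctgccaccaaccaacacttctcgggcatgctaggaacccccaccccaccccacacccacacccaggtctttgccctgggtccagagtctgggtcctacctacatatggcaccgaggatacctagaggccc
Nr1h4 window, chr10:89506609-89506908, minus strand: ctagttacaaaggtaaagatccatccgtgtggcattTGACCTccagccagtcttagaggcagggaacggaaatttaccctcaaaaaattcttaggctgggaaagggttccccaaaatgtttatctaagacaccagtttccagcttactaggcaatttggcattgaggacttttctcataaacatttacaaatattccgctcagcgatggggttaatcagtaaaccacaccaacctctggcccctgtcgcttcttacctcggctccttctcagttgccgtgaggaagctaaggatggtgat
Rxrg upstream window, chr1:167598112-167598411, plus strand: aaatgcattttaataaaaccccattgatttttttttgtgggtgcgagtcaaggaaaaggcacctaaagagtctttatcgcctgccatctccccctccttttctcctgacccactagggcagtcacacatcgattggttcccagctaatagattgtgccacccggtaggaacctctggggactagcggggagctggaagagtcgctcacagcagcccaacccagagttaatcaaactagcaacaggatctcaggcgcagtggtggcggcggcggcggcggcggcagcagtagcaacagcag
Rxrg downstream window, chr1:167618015-167618314, plus strand: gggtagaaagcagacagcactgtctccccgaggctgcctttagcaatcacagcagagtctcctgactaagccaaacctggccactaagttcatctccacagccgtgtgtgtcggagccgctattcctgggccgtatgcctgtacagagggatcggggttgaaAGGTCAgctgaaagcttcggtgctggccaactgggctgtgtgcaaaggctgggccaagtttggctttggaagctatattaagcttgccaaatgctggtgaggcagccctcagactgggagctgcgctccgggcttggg
Ppard window, chr17:28232504-28232803, plus strand: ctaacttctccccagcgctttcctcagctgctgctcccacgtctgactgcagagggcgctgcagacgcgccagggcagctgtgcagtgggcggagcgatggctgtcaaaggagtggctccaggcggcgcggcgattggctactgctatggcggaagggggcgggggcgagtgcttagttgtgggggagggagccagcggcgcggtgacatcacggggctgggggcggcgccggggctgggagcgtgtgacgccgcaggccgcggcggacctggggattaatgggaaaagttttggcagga
Vdr window, chr15:97908247-97908546, minus strand: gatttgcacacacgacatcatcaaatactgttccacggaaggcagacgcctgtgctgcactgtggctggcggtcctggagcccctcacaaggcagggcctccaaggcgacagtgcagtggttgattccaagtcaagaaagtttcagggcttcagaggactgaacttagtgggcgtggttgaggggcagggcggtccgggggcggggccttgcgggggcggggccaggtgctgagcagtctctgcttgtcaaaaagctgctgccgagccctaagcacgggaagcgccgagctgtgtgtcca
The Nr1h4 window holds 1 hexamer, which begins 214 bases before that inner start. The downstream Rxrg window holds 1, which begins 88 bases before its start. None of the letters AGGTCA or TGACCT in that order occur in the windows of Nr1i3, Ppard and Vdr. Over all 32851 windows of the table, 16.3% held the hexamer on either strand, and 8 of the 42 windows of the nuclear receptor genes did. Those 8 windows belong to Nr1h4, Nr5a2, Nr6a1, Rara, Rarg, Rxra, Rxrg and Thrb, of 29 genes with a window. The longer form TCAAGGTCA, which contains the hexamer, was in 0.423% of all windows and in none of theirs. TATAAA on either strand was in 13.6% of all windows and in a window of Nr0b2, Nr4a2, Nr5a2 and Thrb. These matches describe letters in a window and were not set against binding data.

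Per length, the receptors ranged over several orders of magnitude within a library. On the FPKM scale (deposited values scaled by gene length and depth), Nr1i3, the xenobiotic sensor CAR, had the highest level in WT livers at 105 ± 37.7 (SD, n = 3), followed by Rxra at 79.9 ± 14.8, and their ranges overlapped. Nr1h4, the bile acid receptor FXR, stood at 54.0 ± 15.7, Nr1h3, the oxysterol receptor LXR alpha, at 50.1 ± 0.922, Nr1i2, the xenobiotic sensor PXR, at 39.2 ± 1.58 and Ppara, the fatty acid receptor, at 29.5 ± 7.17 FPKM in WT livers. Nr1h4 overlapped Nr1h3, and Nr1i2 overlapped Ppara, whereas Rxra and Nr1h4 did not overlap, nor did Nr1h3 and Nr1i2. The lowest in WT livers were Nr2f1 at 0.26 ± 0.052, Nr4a2 at 0.163 ± 0.0651 and Vdr, the vitamin D receptor, at 0.0133 ± 0.0115 FPKM.

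Several receptors took other ranks of FPKM level in 0d livers and in tumors. Rarg had rank 14 in 0d and 24 in WT livers, Nr0b2 rank 18 in 0d and 9 in WT livers, and Esr1 rank 28 in 0d and 19 in WT livers. In 0d livers Rxra came first at 74.9 ± 2.82 FPKM and overlapped no other receptor, and Nr1i3 had rank 6 at 22.2 ± 1.67 FPKM (SD, n = 3 each). At 7 and 21 days Nr1i3 had ranks 3 and 2, at 57.5 ± 21.8 and 52.7 ± 4.57 FPKM (SD, n = 4 each), and in 50d livers it had rank 5 at 30.4 ± 4.79 FPKM. Rxra had the highest mean in all of these groups, at 70.9 to 76.0 FPKM. In Fah-/- tumors Nr1i3 had rank 15 at 5.25 ± 5.45 FPKM and in Hdac3-/- tumors rank 11 at 11.6 ± 5.76 FPKM, whereas in adjacent tissue it was first at 181 ± 81.2 FPKM and overlapped no other receptor. Ppard had rank 9 in 50d livers at 13.8 ± 2.82 FPKM and rank 23 in WT livers at 3.01 ± 0.537 FPKM. Vdr had rank 26 in both kinds of tumor, at 0.647 ± 0.172 FPKM in Fah-/- and 1.18 ± 0.541 FPKM in Hdac3-/- tumors, and last in adjacent tissue at 0.03 ± 0.0361 FPKM.

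**Figure D1:**
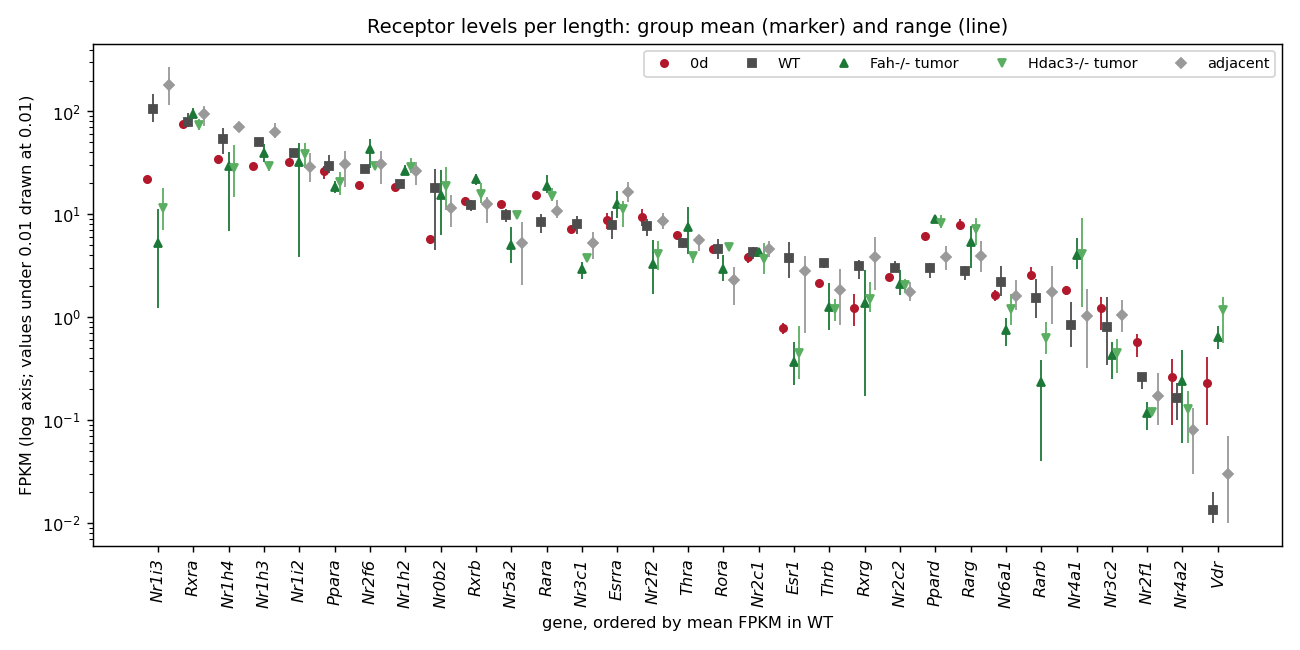
Mean FPKM (markers, log axis) and lowest to highest library (lines) of the 31 receptors in 0d and WT livers and in Fah-/- tumors, Hdac3-/- tumors and adjacent tissue, with genes ordered by their WT mean and values under 0.01 drawn at 0.01. Nr1i3, leftmost, spans from 5.25 FPKM in Fah-/- tumors to 181 FPKM in adjacent tissue, and Vdr, rightmost, is highest in the tumors.

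In 0d Hdac3-/- livers, 10 receptors were lower and 3 were higher than in WT livers by edgeR's quasi-likelihood test at an adjusted p under 0.05, of 29 tested. Called receptors thus made up 44.8% of those tested, against 37.3% of all 13617 genes tested (18.3% higher and 19.0% lower). Their median log2 fold change was -0.41, against 0.00 over all genes. The lower genes were the sensors Nr1i3, Nr1h4, Nr0b2 and Nr1h3, the retinoid X receptor Rxrg, the thyroid hormone receptor Thrb, the estrogen receptor Esr1, and the orphan receptors Nr2f6, Nr6a1 and Nr2c2. The higher ones were Rarg, Ppard and Rara. Vdr and Nr4a2 did not pass the filter on low counts in young livers.

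Of the 5 bile acid and xenobiotic sensors that passed the filter on low counts, 3 were lower in 0d livers and none was higher. Nr1i3 had 24.7, 28.4 and 27.8 CPM in 0d livers, against 126, 124 and 220.4 CPM in WT livers. Every 0d library lay far below every WT library, with a log2 fold change of -2.54 ± 0.35 (SE, adjusted p = 0.000114). Nr1h4 had 54.7, 67.1 and 62.5 CPM in 0d livers, against 124, 79.5 and 151 CPM in WT livers, and the groups did not overlap (-0.94 ± 0.28, adjusted p = 0.0164). The Nr1h4 call was lost without WT replicate 3 (-0.73, adjusted p = 0.0792) and without 0d replicate 1 (-0.87, adjusted p = 0.0619). Nr0b2, the atypical receptor SHP that lacks a DNA-binding domain and is induced by FXR, had 5.68, 5.91 and 4.96 CPM in 0d livers, against 34.8, 24.7 and 5.38 CPM in WT livers. Here WT replicate 3 lay within the 0d range, and the fold change was -1.96 ± 0.47 (adjusted p = 0.00472). Nr1i2 was at 65.0, 76.6 and 73.2 CPM in 0d livers, against 117, 102 and 102 CPM in WT livers, and did not pass (-0.58 ± 0.3, adjusted p = 0.134) although the groups did not overlap. Nr5a2, the receptor LRH-1 that takes part in bile acid synthesis, had 39.0 to 41.7 CPM in 0d livers, against 33.8 to 42.7 CPM in WT livers, with overlapping groups.

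Of the oxysterol and fatty acid sensors, Nr1h3 was lower and Ppard higher. Nr1h3 had 44.0, 50.4 and 44.1 CPM in 0d livers, against 101, 92.2 and 98.0 CPM in WT livers (-1.07 ± 0.2, adjusted p = 0.000894). Ppard, a fatty acid receptor expressed in most tissues, had 16.3, 17.6 and 17.9 CPM in 0d livers, against 8.85, 11 and 11.5 CPM in WT livers (0.73 ± 0.2, adjusted p = 0.0108). Both pairs of groups were apart, and the Ppard call was lost without WT replicate 1 (0.62, adjusted p = 0.0531). Nr1h2, the broadly expressed LXR beta, had 30.4 to 35.0 CPM in 0d livers, against 40.8 to 46.6 CPM in WT livers, and Ppara had 140.1 to 191 CPM in 0d livers, against 199.8 to 282 CPM in WT livers. Neither passed the test (adjusted p = 0.0717 and 0.322).

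Retinoid receptors moved in both directions in 0d livers. Rxrg, one of the shared partner receptors and low in liver, had 1.53, 2.69 and 2.05 CPM in 0d livers, against 4.65, 5.92 and 6.43 CPM in WT livers (-1.43 ± 0.26, adjusted p = 0.000659). Rarg, a retinoic acid receptor, had 18.5, 17.8 and 21.5 CPM in 0d livers, against 7.26, 8.52 and 9.38 CPM in WT livers (1.20 ± 0.23, adjusted p = 0.00118). Neither pair of groups came near to overlapping. Rara, also a retinoic acid receptor, had 40.8, 42.2 and 46.3 CPM in 0d livers, against 32.6, 21.4 and 34.2 CPM in WT livers (0.56 ± 0.16, adjusted p = 0.0121). That call was lost without WT replicate 2 (0.37, adjusted p = 0.0525) and without 0d replicate 3 (0.49, adjusted p = 0.056). Rxra, the main retinoid X receptor of liver, had 328 to 354 CPM in 0d livers, against 381 to 535 CPM in WT livers, and did not pass (-0.39, adjusted p = 0.213). Rxrb and Rarb did not pass either, with 27.0 to 31.3 and 5.73 to 7.52 CPM in 0d livers, against 30 to 36.5 and 2.95 to 7.06 CPM in WT livers.

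Of the thyroid and steroid hormone receptors, Thrb and Esr1 were lower in 0d livers. Esr1 had 4.32, 3.74 and 4.70 CPM in 0d livers, against 25.8, 34.7 and 16.2 CPM in WT livers, with no overlap (-2.58 ± 0.28, adjusted p = 2.72e-05). Thrb, the main thyroid hormone receptor of liver, had 11.9, 10.7 and 11.2 CPM in 0d livers, against 20.9, 21.0 and 23.3 CPM in WT livers (-0.94 ± 0.32, adjusted p = 0.0291). The groups did not overlap, yet the Thrb call was lost without any 1 of 5 of the 6 libraries compared, at adjusted p of 0.0573 without WT replicate 1, 0.0727 without WT replicate 3, 0.0625, 0.0748 and 0.0691 without 0d replicates 1, 2 and 3. Thra, at 11.4 to 12.9 CPM in 0d livers, against 12.1 to 13.4 CPM in WT livers, did not pass. The glucocorticoid receptor Nr3c1 had 39.5 to 40.9 CPM in 0d livers, against 43.9 to 62.5 CPM in WT livers, and did not pass (adjusted p = 0.127), nor did the mineralocorticoid receptor Nr3c2 at 2.65 to 5.60 CPM in 0d livers, against 1.59 to 6.65 CPM in WT livers.

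Of the 8 orphan receptors, 3 were lower in 0d livers and none was higher, a share close to the 37.3% of all genes called. Nr2f6, a repressor of the COUP family, had 34.3, 39.5 and 38.3 CPM in 0d livers, against 70.1, 60.0 and 68.3 CPM in WT livers (-0.82 ± 0.22, adjusted p = 0.00963). Nr2c2, the testicular receptor TR4, had 16.9, 17 and 15.9 CPM in 0d livers, against 31.3, 21.4 and 23.1 CPM in WT livers (-0.60 ± 0.18, adjusted p = 0.015), and was lost without WT replicate 1 (-0.42, adjusted p = 0.0919). Nr6a1, the germ cell nuclear factor, had 9.67, 8.51 and 7.43 CPM in 0d livers, against 12.7, 19.0 and 10.2 CPM in WT livers (-0.71 ± 0.27, adjusted p = 0.0471). In each case all 0d libraries lay below all WT libraries. The Nr6a1 call was lost in 12 of 17 fits that left out 1 library, with -0.42 (adjusted p = 0.237) without WT replicate 2. Nr2c1, Nr2f1, Nr2f2, Esrra and Rora did not pass, with log2 fold changes between -0.46 and 0.85. Nr2f6 and Nr2c2 share 1622 and 4590 exon bases with Ocel1 and Mrps25 on the opposite strand, Nr1i3 shares 3304 with Tomm40l, Rarb shares 1793 with Top2b, and Nr2f2 shares 643 with B130024G19Rik. These shared bases were taken over the exons of all GENCODE transcripts of a gene. The 3304 of Nr1i3 exceed its deposited length of 1405.78 bases, so not all of them need lie in what was counted. The sources used here do not give whether counting used strand, so counts of these genes may include reads of their partners.

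With library totals in place of TMM scaling, the median of all genes shifted to a log2 fold change of 0.30 in 0d against WT, and Nr2f6, Thrb, Nr2c2 and Nr6a1 no longer passed (-0.52, -0.65, -0.29 and -0.42, adjusted p of 0.0745 to 0.26). Nr1i3, Esr1, Nr0b2, Rxrg, Nr1h3, Nr2f6 and Rarg held in all 17 fits that left out 1 library. The cell type markers also differed. All 8 hepatocyte markers were lower in 0d livers, with sums of 37814 to 47019 CPM in 0d livers, against 149749.9 to 162972 CPM in WT livers. Of 7 biliary markers tested, 6 were higher, with sums over the 8 listed of 407 to 656 CPM in 0d livers, against 62.2 to 75.8 CPM in WT livers, and 5 of 8 macrophage markers were higher and 2 lower, with sums of 385 to 439 CPM in 0d livers, against 187 to 392 CPM in WT livers. Stellate and fibroblast markers, of which 3 of 8 were higher, summed to 628 to 980.5 CPM in 0d livers, against 309 to 346 CPM in WT livers. No marker of these lists was at 0 in all libraries of either group. In bulk liver, fewer cells of a type and less RNA per cell cannot be told apart, and the part of these markers in the receptor values was not tested.

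**Figure D2:**
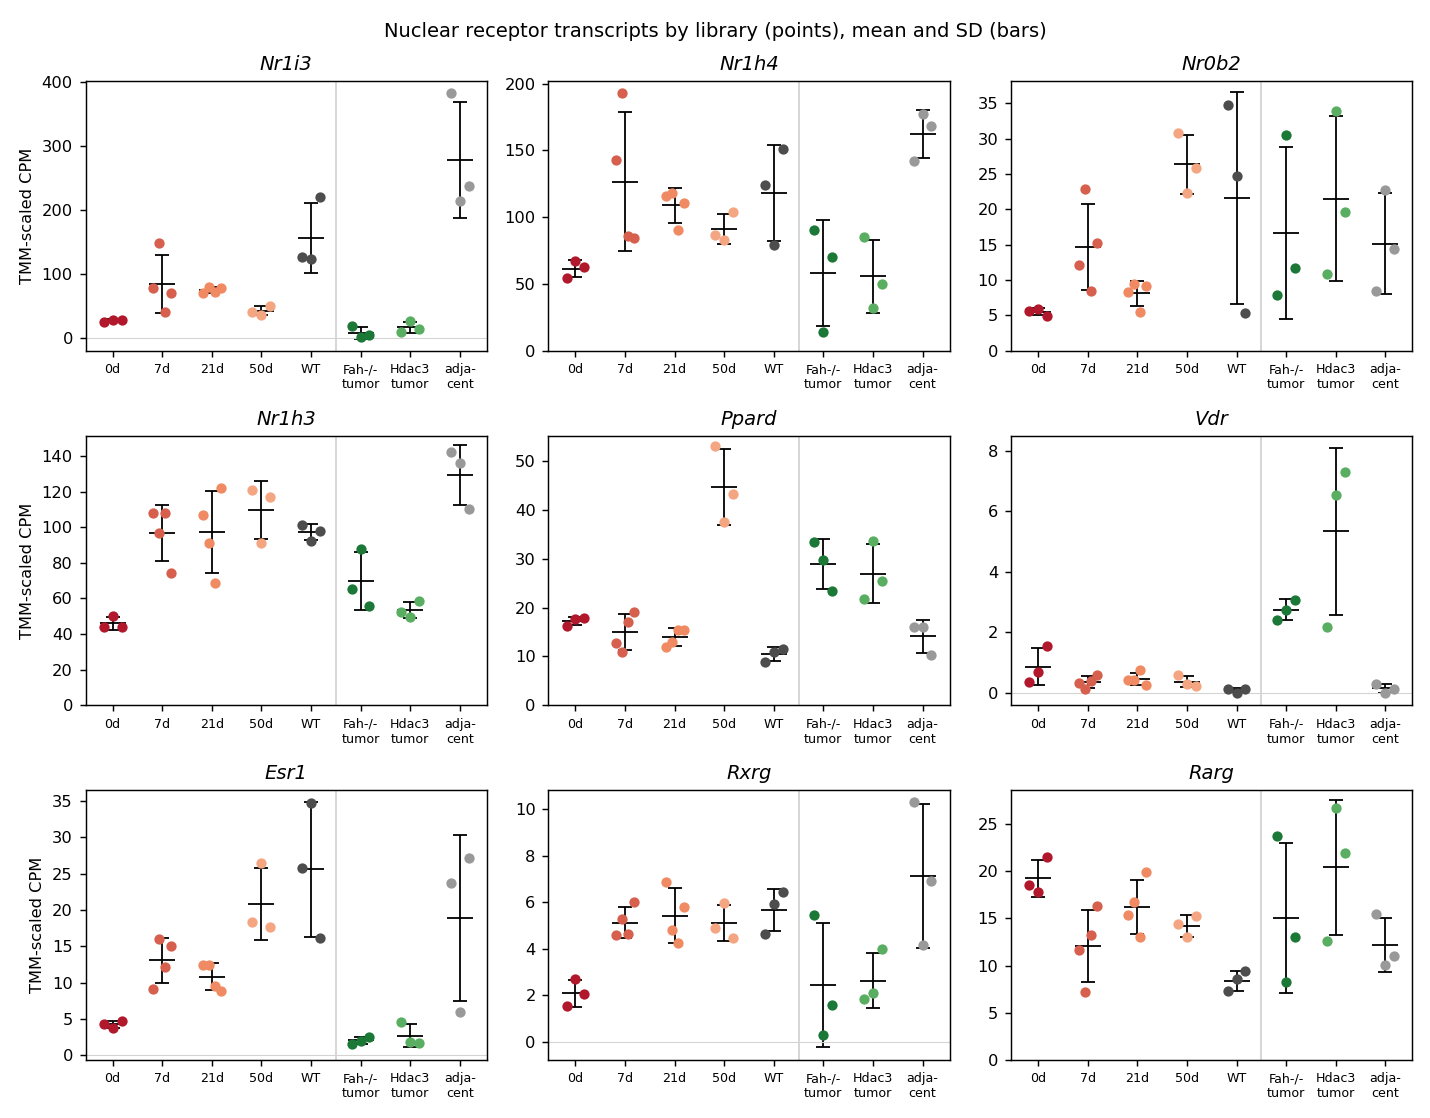
TMM-scaled CPM of 9 receptors in each library (points), with group mean and SD (bars), for young Hdac3-/- livers by day and WT livers (left of the grey line) and older tissues (right of it). Nr1i3, Esr1 and Nr1h3 sit low in 0d livers against WT livers and in both kinds of tumor against adjacent tissue, Ppard sits at 37.6 to 53.0 CPM in 50d livers, and Vdr sits at 2.17 to 7.31 CPM in tumors.

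Nr1h3, Esr1 and Rxrg were higher in 7d, 21d and 50d livers than in 0d livers, and Ppard was higher in 50d livers alone. By edgeR, 8 of 29 receptors passed in 7d against 0d livers (7 higher, 1 lower), 9 in 21d against 0d (8 higher, 1 lower) and 7 in 50d against 0d (all 7 higher). These are 27.6%, 31% and 24.1% of the receptors tested, against 26.6%, 31.6% and 25.8% of all genes tested, so the shares lie near those of all genes. Of all genes 14.7%, 17.6% and 14.4% were higher and 11.9%, 14% and 11.4% lower. The median log2 fold changes of the receptors were 0.16, 0.11 and 0.13, against 0.04, 0.01 and 0.01 over all genes. All 3 comparisons share the 0d libraries with each other and with 0d against WT. Every 7d, 21d and 50d library carried Y-linked transcripts and no 0d library did, so the day after sPH and this difference cannot be told apart in these comparisons. Hepatocyte markers were higher for 5 of 8 at 21 days and 4 of 8 at 50 days, with sums of 59541 to 70138 CPM in 21d and 58418 to 64979 CPM in 50d livers, against 37814 to 47019 CPM in 0d livers. Stellate and fibroblast markers were lower for 4 of 8 at 21 days and 2 of 8 at 50 days, with sums of 133 to 671 CPM in 21d and 293 to 382 CPM in 50d livers, against 628 to 980.5 CPM in 0d livers. Biliary markers were lower for 4 of 7 at 21 days and 1 of 7 at 50 days, with sums of 230 to 393 CPM in 21d and 565 to 938 CPM in 50d livers, against 407 to 656 CPM in 0d livers. Macrophage markers were higher for 2 of 8 at both days and lower for 1 at 21 days and 2 at 50 days, with sums of 421 to 519.9 CPM in 21d and 667 to 831 CPM in 50d livers, against 385 to 439 CPM in 0d livers. Endothelial markers were lower for 1 of 8 at both days. No marker of these lists was at 0 throughout a group, and their part in the receptor values was not tested.

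Nr1h3, Esr1 and Rxrg passed at each of the 3 later days. Nr1h3 had 108, 96.5, 108 and 74.3 CPM in 7d livers, 107, 91.2, 68.5 and 122 CPM in 21d livers and 121, 90.9 and 117 CPM in 50d livers, against 44.0 to 50.4 CPM in 0d livers. Its log2 fold changes were 1.06 ± 0.19, 1.07 ± 0.19 and 1.24 ± 0.2 (adjusted p = 0.0014, 0.00101 and 0.000619). Esr1 had 9.16, 16.0, 12.1 and 15 CPM in 7d livers, 12.4, 12.4, 9.54 and 8.88 CPM in 21d livers and 18.3, 26.5 and 17.6 CPM in 50d livers, against 3.74 to 4.70 CPM in 0d livers. All later libraries lay above the 0d range (1.61 ± 0.27, 1.34 ± 0.27 and 2.28 ± 0.28, adjusted p = 0.000956, 0.00209 and 0.000137). Rxrg had 4.58 to 6.01 CPM in 7d livers, 4.24 to 6.88 CPM in 21d livers and 4.46 to 5.97 CPM in 50d livers, against 1.53 to 2.69 CPM in 0d livers (1.29 ± 0.24, 1.37 ± 0.24 and 1.28 ± 0.26). No call of these 3 genes was lost when 1 library was left out.

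Nr1i3 and Nr1h4 passed at 7 and 21 days and not at 50 days. Nr1i3 had 78.6, 148, 40.0 and 69.8 CPM in 7d livers, 69.9, 80.2, 72.0 and 78.7 CPM in 21d livers and 41.0, 36.4 and 49.8 CPM in 50d livers, against 24.7 to 28.4 CPM in 0d livers. All later libraries lay above 0d, and the fold changes were 1.63 ± 0.33 and 1.48 ± 0.32 at 7 and 21 days (adjusted p = 0.00274 and 0.00353) and 0.65 at 50 days (adjusted p = 0.163). The 50d libraries lay below all 21d libraries, and that difference did not pass (-0.83, adjusted p = 0.306). Nr1h4 had 143, 193, 86.3 and 84.1 CPM in 7d livers, 116, 118, 90.1 and 111 CPM in 21d livers and 86.9, 82.9 and 104 CPM in 50d livers, against 54.7 to 67.1 CPM in 0d livers. Its fold changes were 1.04 ± 0.27, 0.82 ± 0.27 and 0.57, of which the 50d value did not pass (adjusted p = 0.0115, 0.0293 and 0.146). Without 0d replicate 1 the 7d value was 0.97 (adjusted p = 0.0551), and the 21d call was lost in 6 of 17 fits, with 0.73 (adjusted p = 0.115) without 0d replicate 1. Fitting only the 50d and 0d libraries gave calls for both genes at 50 days (0.65 and 0.57, adjusted p = 0.00491 and 0.00742).

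Nr0b2 passed at 7 and 50 days. It had 12.2, 22.9, 8.50 and 15.3 CPM in 7d livers, 8.34, 9.48, 5.51 and 9.12 CPM in 21d livers and 30.8, 22.4 and 25.9 CPM in 50d livers, against 4.96 to 5.91 CPM in 0d livers. The 21d libraries overlapped the 0d range, and the 50d libraries lay above all 21d libraries. The fold change was 2.25 ± 0.48 at 50 days (adjusted p = 0.00348) and 1.40 ± 0.45 at 7 days (adjusted p = 0.031), where the call was lost without 7d replicate 2 (1.12, adjusted p = 0.0846) and without 0d replicate 1, 2 or 3 (adjusted p = 0.0851, 0.0692 and 0.0905). Between 50d and 21d livers the difference of 1.70 did not pass (adjusted p = 0.106), whereas DESeq2 called it (1.71, adjusted p = 0.0109).

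Ppard was higher in 50d livers than in the 3 other groups of young Hdac3-/- livers. It had 53.0, 37.6 and 43.2 CPM in 50d livers, against 12.0, 12.9, 15.5 and 15.4 CPM in 21d livers, 12.7, 11, 17.1 and 19.0 CPM in 7d livers and 16.3 to 17.9 CPM in 0d livers. The lowest 50d library lay well above the highest library of the other 3 groups. The log2 fold change was 1.68 ± 0.18 against 21d (adjusted p = 0.000665), 1.57 ± 0.18 against 7d (adjusted p = 0.00125) and 1.36 ± 0.2 against 0d livers (adjusted p = 0.000296). It was the only receptor of 29 that passed in 50d against 7d and in 50d against 21d, where 0.441% of all genes passed in each (0.286% higher and 0.154% lower against 7d, 0.264% and 0.176% against 21d), and all 3 calls held when any library was left out. With only the 50d and 7d libraries in the fit, the value was 1.57 with an adjusted p of 0.0538. All libraries of these 2 groups and of 21d carried Y-linked transcripts. Biliary markers summed to 565 to 938 CPM in 50d livers, against 230 to 393 CPM in 21d and 158 to 493 CPM in 7d livers, with 1 of 7, Sox9, higher in 50d against 21d livers and 0 passing against 7d. Macrophage markers summed to 667 to 831 CPM in 50d livers, against 421 to 519.9 CPM in 21d and 436 to 1234 CPM in 7d livers, with 0 of 8 passing in either. The part of these markers in the Ppard value was not tested. Ppara, the other fatty acid receptor, had 68.4, 121 and 73.4 CPM in 50d livers, against 140.1 to 191 CPM in 0d livers, and did not pass (-0.94, adjusted p = 0.059), while DESeq2 called it lower (-0.96, adjusted p = 0.0296). Between 21d and 7d livers no receptor and no gene passed by edgeR, whereas 2 receptors had an unadjusted p under 0.05 and DESeq2 called 65 genes, of which 0 were receptors.

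The remaining calls at the later days had log2 fold changes of at most 0.95 in size. Nr2f6 was higher in 21d livers at 68.1, 73.4, 39.9 and 72.5 CPM and in 50d livers at 90.5, 60.6 and 65.7 CPM, against 34.3 to 39.5 CPM in 0d livers (0.76 ± 0.21 and 0.95 ± 0.22, adjusted p = 0.0133 and 0.00658). Replicate 3 of 21d stayed close to the 0d range, and without 0d replicate 1 the 21d call was lost (0.69, adjusted p = 0.0641). Nr1h2 was higher in 21d livers at 33.0 to 61.6 CPM and in 50d livers at 46.4 to 48.4 CPM, against 30.4 to 35.0 CPM in 0d livers (0.65 ± 0.17 and 0.56 ± 0.17). Its 21d call held in all 17 fits that left out 1 library, although the lowest 21d library lay within the 0d range. Its 50d call was lost in 4 of those 17 fits. It was 0.53 (adjusted p = 0.0861) without 0d replicate 1 and 0.54 (0.0759) without 0d replicate 3. Without 50d replicate 1 it was 0.56 (0.0699) and without 50d replicate 3 it was 0.55 (0.0774). Library totals in place of TMM ended the Nr2f6 call at 21 days and both Nr1h2 calls (adjusted p = 0.0634, 0.0594 and 0.121).

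Esrra, an orphan receptor known for driving mitochondrial genes, had 28.6, 36.3, 28.1 and 28.7 CPM in 7d livers and 21.3 to 30.8 CPM in 21d livers, against 14.3 to 19.7 CPM in 0d livers (0.81 ± 0.22 and 0.61 ± 0.22, adjusted p = 0.0137 and 0.0407). Without 0d replicate 1 both were lost (0.70 and 0.48, adjusted p = 0.0729 and 0.177), and the 21d call was lost in 6 of 17 fits in all. Rarg was lower in 7d livers at 11.6, 7.22, 13.2 and 16.3 CPM, against 17.8 to 21.5 CPM in 0d livers (-0.67 ± 0.21, adjusted p = 0.0291), and the call was lost without any 1 of 0d replicates 1, 2 and 3 and 7d replicates 1 and 2 (adjusted p of 0.055 to 0.12). Nr5a2 was lower in 21d livers at 19.6 to 25.9 CPM, against 39.0 to 41.7 CPM in 0d livers (-0.82 ± 0.3, adjusted p = 0.0462), with the groups apart, and was lost in 10 of 17 fits, with -0.75 (adjusted p = 0.0822) without 21d replicate 3 and adjusted p up to 0.106 without 0d replicate 1.

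Within 7d livers, replicates 1 and 2 differed from replicates 3 and 4 in several receptors. Nr1h4 was at 143 and 193 CPM in replicates 1 and 2 and at 86.3 and 84.1 CPM in replicates 3 and 4. The same order held for Nr5a2 (34.4 and 32.1 against 16.6 and 16.2 CPM), Thrb (19.5 and 20.2 against 9.09 and 9.92 CPM) and Nr3c1 (55.5 and 59.7 against 34.0 and 30.5 CPM). The hepatocyte marker sums were 75469.5 and 118090.3 CPM in replicates 1 and 2 and 31786 and 36944 CPM in replicates 3 and 4, and replicate 3 also had the highest neutrophil sum, 1603 CPM, where the other 3 had 97.0 to 251 CPM. Of the cell markers in 7d against 0d livers, 4 of 8 hepatocyte and 6 of 6 neutrophil markers were higher, with hepatocyte sums of 31786 to 118090.3 CPM in 7d livers, against 37814 to 47019 CPM in 0d livers, and neutrophil sums of 97.0 to 1603 CPM in 7d livers, against 30.1 to 60.8 CPM in 0d livers. In the same comparison 4 of 8 stellate and fibroblast, 2 of 7 biliary and 2 of 8 endothelial markers were lower and none of them higher, 2 of 8 macrophage markers were higher and 1 lower, and 2 of 7 lymphocyte markers were higher. Stellate and fibroblast sums were 182 to 645 CPM in 7d livers, against 628 to 980.5 CPM in 0d livers. No marker of these lists was at 0 throughout a group, and their part in the receptor values was not tested. In 21d livers replicate 3 stood apart in Nr1i2 (116 CPM, where the others had 48.6 to 60.4 CPM) and in Nr4a1, an immediate early receptor that responds to many stimuli (2.44 CPM, where the others had 11.7 to 12.5 CPM). Nr4a1 in 21d against 0d livers did not pass with all libraries (1.27, adjusted p = 0.0677), and passed without 21d replicate 3 (1.59, adjusted p = 0.00833).

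**Figure D3:**
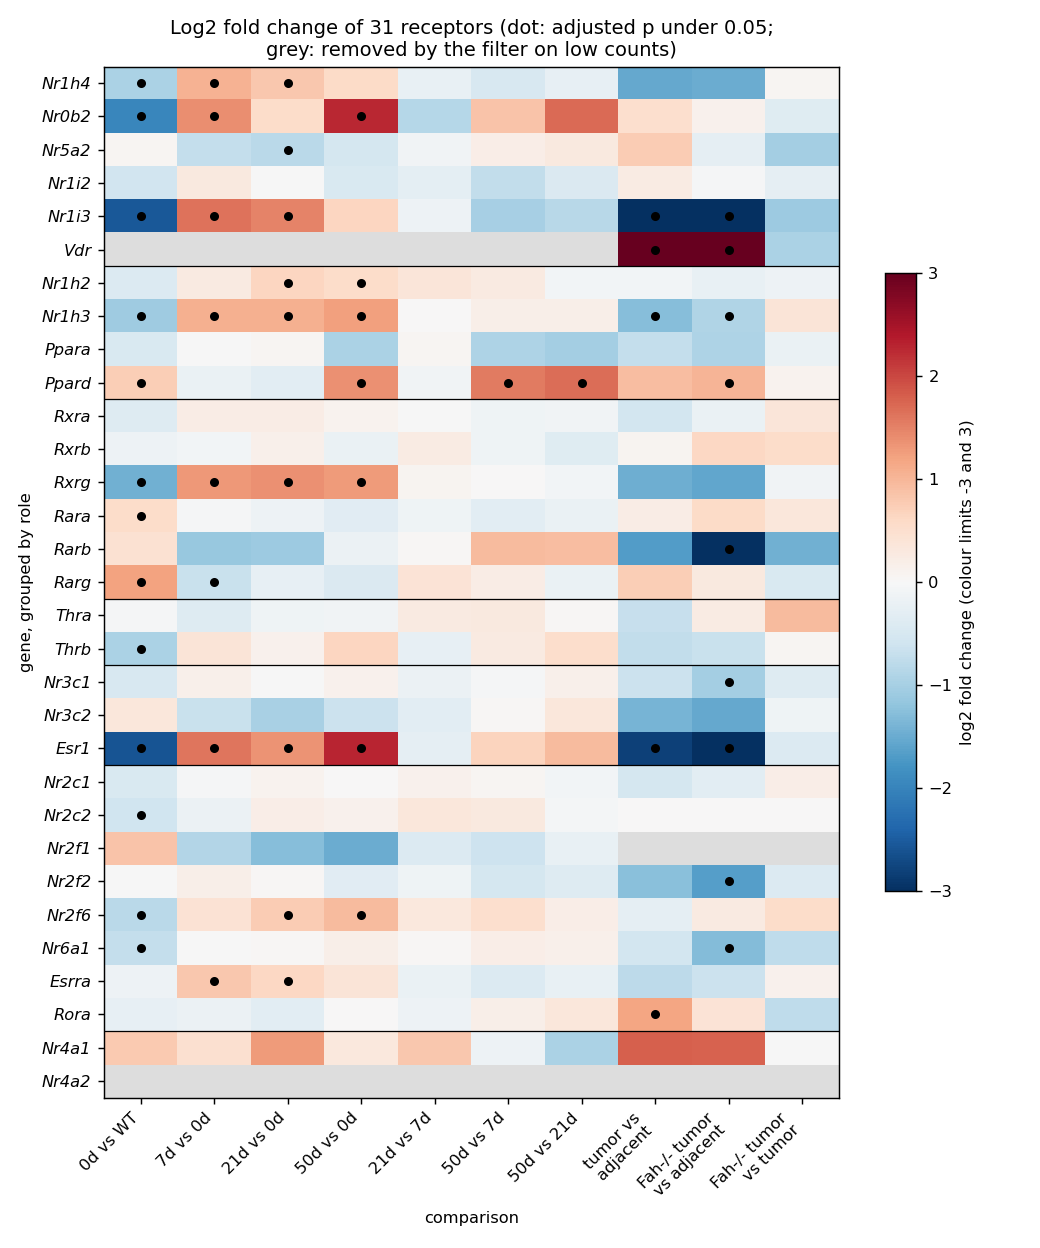
Log2 fold change (colour, limits -3 and 3) of the 31 receptors (rows, grouped by role) in the 10 comparisons (columns), where a dot marks an adjusted p under 0.05 and grey a gene removed by the filter on low counts. The columns against 0d share the 0d libraries, and Ppard carries the only dots in 50d against 7d and 50d against 21d.

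In older tissues Nr1i3, Esr1 and Nr1h3 were lower in both kinds of tumor than in adjacent tissue. In Fah-/- tumors 9 of 29 receptors tested passed against adjacent tissue (2 higher, 7 lower), and in Hdac3-/- tumors 5 passed (2 higher, 3 lower). These are 31% and 17.2% of the receptors, against 15.3% and 10.3% of the 13187 genes tested. Of those genes 8.18% were higher and 7.08% lower in Fah-/- tumors, and 5.29% higher and 4.98% lower in Hdac3-/- tumors. The median log2 fold changes of the receptors were -0.27 and -0.56, against 0.04 and 0.02 over all genes. Both comparisons use the same adjacent libraries, and both counts include Vdr, which passed the filter on low counts only through the tumor libraries. Between Fah-/- and Hdac3-/- tumors no receptor and no gene passed by edgeR, 3 receptors had an unadjusted p under 0.05, and DESeq2 called 41 genes, of which 0 were receptors. With 3 libraries per group, the absence of calls does not show that the 2 kinds of tumor were alike. Nr2f1 and Nr4a2 did not pass the filter on low counts.

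Nr1i3 had 18.1, 1.71 and 3.66 CPM in Fah-/- tumors and 8.76, 26.4 and 14.4 CPM in Hdac3-/- tumors, against 383, 215 and 238 CPM in adjacent tissue. The highest tumor library was far below the lowest adjacent one, and the log2 fold changes were -5.17 ± 0.88 (adjusted p = 0.00685) and -4.08 ± 0.83 (adjusted p = 0.0171). The Fah-/- value held in all 9 fits that left out 1 library, and the Hdac3-/- call was lost without replicate 1, 2 or 3 of that tumor (-3.78, -4.60 and -3.99, adjusted p = 0.0637, 0.0574 and 0.0688). Vdr was near 0 counts in adjacent tissue and entered the test only because of its counts in tumors, so its passing is given as a description. It had 23, 29 and 37 counts (2.40, 2.75 and 3.08 CPM) in Fah-/- tumors and 25, 63 and 70 counts (2.17, 6.54 and 7.31 CPM) in Hdac3-/- tumors, against 3, 0 and 1 counts (0.297, 0 and 0.107 CPM) in adjacent tissue. No tumor library overlapped adjacent tissue. The fitted log2 fold changes were 4.16 ± 0.78 and 5.11 ± 0.79 (adjusted p = 0.0102 and 0.00685), and with 0 to 3 counts in adjacent tissue their size depends on the prior count of the fit. The Fah-/- call was lost without adjacent replicate 3 (4.0, adjusted p = 0.0522). In young livers Vdr had 4, 8 and 18 counts in 0d livers, against 1, 0 and 1 counts in WT livers, and without the filter on low counts it passed there (3.36, adjusted p = 0.00658).

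Esr1 had 1.57, 1.99 and 2.58 CPM in Fah-/- tumors and 4.60, 1.87 and 1.67 CPM in Hdac3-/- tumors, against 23.7, 5.92 and 27.2 CPM in adjacent tissue. No tumor library reached the lowest adjacent one, which was the adjacent library with Y-linked transcripts (-3.21 ± 0.62 and -2.80 ± 0.61, adjusted p = 0.0114 and 0.0225). With Y-linked transcripts as a covariate the values were -3.48 and -2.62 (adjusted p = 0.00764 and 0.0154). The Hdac3-/- call was lost without tumor replicate 2 (-2.59, adjusted p = 0.102) or 3 (-2.54, 0.078) and without adjacent replicate 1 (-2.61, 0.0586) or 3 (-2.46, 0.0743). Nr1h3 had 65.1, 87.9 and 56.0 CPM in Fah-/- tumors and 52.2, 49.6 and 58.6 CPM in Hdac3-/- tumors, against 142, 136 and 110.2 CPM in adjacent tissue, with no overlap (-0.90 ± 0.25 and -1.28 ± 0.25, adjusted p = 0.0377 and 0.0155). Its Fah-/- call was lost in 8 of 9 fits, with -0.79 (adjusted p = 0.0839) without Fah-/- tumor replicate 3, and its Hdac3-/- call in 3, with -1.23 (adjusted p = 0.0827) without Hdac3-/- tumor replicate 2. Rora, an orphan receptor that binds sterols and acts on clock genes, had 42.7, 58.5 and 55.8 CPM in Hdac3-/- tumors, against 27.2, 16.9 and 24.9 CPM in adjacent tissue (1.18 ± 0.27, adjusted p = 0.0272). It was lost in 5 of 9 fits, with 1.09 (adjusted p = 0.11) without tumor replicate 2 and 0.99 (adjusted p = 0.0921) without adjacent replicate 2, and in Fah-/- tumors, at 31, 24.8 and 36.5 CPM, it did not pass.

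The other calls were in Fah-/- tumors only, and none of these genes passed between the 2 kinds of tumor. Ppard had 33.5, 29.8 and 23.4 CPM in Fah-/- tumors and 21.7, 33.6 and 25.5 CPM in Hdac3-/- tumors, against 16.0, 16.1 and 10.2 CPM in adjacent tissue. It lay above adjacent tissue in all 6 tumors (1.02 ± 0.28, adjusted p = 0.0371 in Fah-/- and 0.93, adjusted p = 0.0645 in Hdac3-/- tumors), and the Fah-/- call was lost in 6 of 9 fits, with 0.83 (adjusted p = 0.12) without adjacent replicate 3. Nr2f2, the COUP family receptor known from venous endothelium and mesenchyme, had 7.94, 11.2 and 20 CPM in Fah-/- tumors, against 34.7, 40.7 and 47.7 CPM in adjacent tissue (-1.65 ± 0.36, adjusted p = 0.0163). Nr3c1 had 17, 19.8 and 18.5 CPM in Fah-/- tumors, against 33.6, 31.5 and 47.5 CPM in adjacent tissue (-1.03 ± 0.23, adjusted p = 0.0184). Both were lost without adjacent replicate 3 (-1.54 and -0.84, adjusted p = 0.0623 and 0.065).

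Rarb, the retinoic acid receptor known from stellate cells, had 1.15, 0.0948 and 0.749 CPM in Fah-/- tumors, against 3.76, 3.32 and 10.2 CPM in adjacent tissue (-3.11 ± 0.78, adjusted p = 0.0274). Those Fah-/- values are 11, 1 and 9 counts, and the call was lost without adjacent replicate 3 (-2.41, adjusted p = 0.11) and without Fah-/- tumor replicate 3 (-3.24, adjusted p = 0.0584). Nr6a1 had 3.45, 4.55 and 4.91 CPM in Fah-/- tumors, against 7.92, 9.24 and 14.9 CPM in adjacent tissue (-1.31 ± 0.38, adjusted p = 0.045) and was lost in 8 of 9 fits, with -1.0 (adjusted p = 0.158) without adjacent replicate 3. In Hdac3-/- tumors Nr2f2, Nr3c1, Nr6a1 and Rarb had 12.8 to 20.6, 21.5 to 26.1, 5.29 to 10.8 and 1.25 to 2.92 CPM and did not pass. With only the Fah-/- and adjacent libraries in the fit, Nr1h3, Nr3c1, Nr6a1, Ppard and Rarb did not pass (adjusted p of 0.0533 to 0.105), and 4 receptors were called in all. With Y-linked transcripts as a covariate, Nr1h3, Nr6a1, Ppard and Rarb did not pass in Fah-/- tumors (adjusted p = 0.0862, 0.092, 0.078 and 0.057).

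Stellate and fibroblast markers, which include Lrat of the retinoid store, summed to 94.1, 31 and 221 CPM in Fah-/- tumors, against 205 to 250.4 CPM in adjacent tissue, with 2 of 8 lower, 0 higher and none at 0 throughout a group. The 8 endothelial markers summed to 112 to 294 CPM in Fah-/- tumors, against 132 to 369 CPM in adjacent tissue, with 1 lower. Macrophage markers were lower for 2 of 8 in Fah-/- and 1 of 8 in Hdac3-/- tumors, with sums of 209 to 293 CPM in Fah-/- and 109 to 207 CPM in Hdac3-/- tumors, against 138 to 604 CPM in adjacent tissue. In Hdac3-/- tumors none of the 8 stellate and fibroblast or 8 endothelial markers passed, and 1 of 4 neutrophil markers tested was lower. Hepatocyte markers summed to 28938 to 58196 CPM in Fah-/- and 33347 to 103914 CPM in Hdac3-/- tumors, against 97707 to 130989.6 CPM in adjacent tissue, and none of the 8 passed in either comparison. The part of these markers in the values of Nr2f2, Rarb and the sensors was not tested. Fah-/- tumor replicate 2 was lowest in Nr1i2 at 9.95 CPM (140.1 and 91.5 CPM in replicates 1 and 3) and in Nr1h4 at 14.2 CPM (90.8 and 70.5 CPM). It was also lowest in Nr1i3 at 1.71 CPM and in the retinoid receptor Rxrg at 0.284 CPM (5.43 and 1.58 CPM). Not all sensors followed. Nr1h3 was highest in that replicate, at 87.9 CPM (65.1 and 56.0 CPM), and Ppard lay between the others at 29.8 CPM. The hepatocyte marker sum of replicate 2, 58196 CPM, was the highest of the Fah-/- tumors.

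Nr1h4, Nr3c2 and Esrra were below adjacent tissue in every tumor without passing. The share of all genes apart in this way is not given here. Nr1h4 had 90.8, 14.2 and 70.5 CPM in Fah-/- tumors and 85.3, 31.8 and 50.3 CPM in Hdac3-/- tumors, against 142, 177 and 168 CPM in adjacent tissue (-1.48 and -1.54, adjusted p = 0.12 and 0.127). Nr3c2 had 1.15 to 2.37 CPM in Fah-/- and 1.04 to 2.71 CPM in Hdac3-/- tumors, against 3.91 to 6.61 CPM in adjacent tissue (-1.53 and -1.39, adjusted p = 0.0567 and 0.09). Nr4a1 had 9.09, 7.58 and 12.6 CPM in Fah-/- tumors and 20.9, 4.98 and 3.45 CPM in Hdac3-/- tumors, against 4.85, 1.07 and 2.45 CPM in adjacent tissue, and passed in neither. Of 10 other immediate early genes, which are switched on fast by many stimuli, 3 were higher in Fah-/- and 4 in Hdac3-/- tumors and none was lower (medians of 1.58 and 1.52). Of all genes 8.18% and 5.29% were higher there. This list was chosen with earlier results of these data known. In 0d against WT livers 7 of the 10 were higher and 1 lower (median 1.64), against 18.3% higher and 19.0% lower of all genes. Btg2, 1 gene of the list, was higher by 2.62 ± 0.31 there and by 3.83 ± 0.46 and 4.15 ± 0.47 in Fah-/- and Hdac3-/- tumors. The part of these immediate early genes in the receptor values was not tested. The heterodimer partner Rxra did not pass in any of the 10 comparisons. It stayed between 279 and 693 CPM over all 26 libraries.

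**Figure D4:**
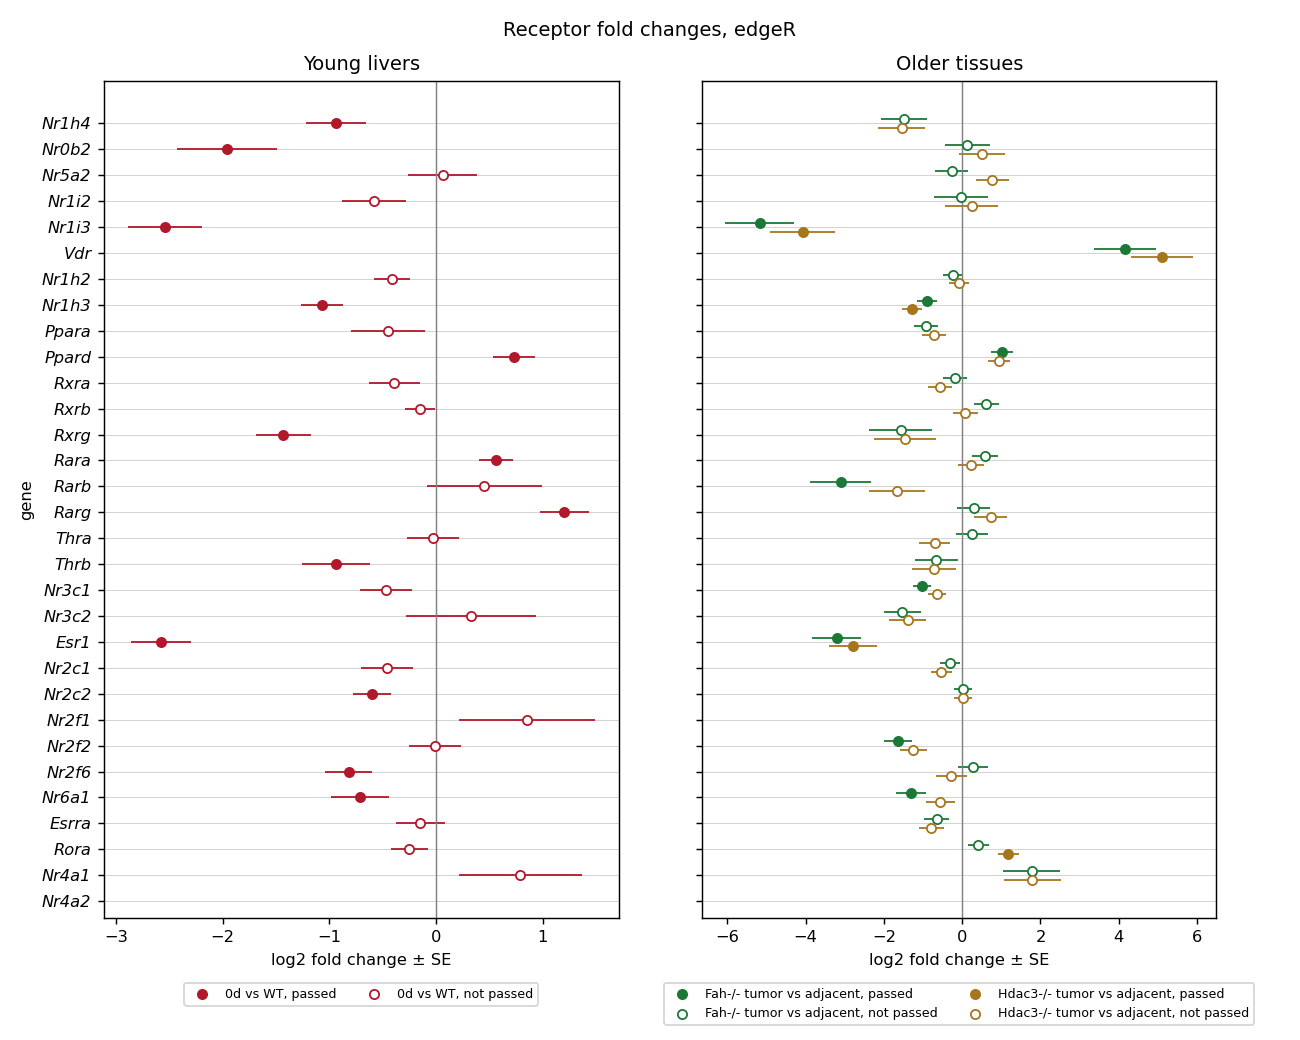
Log2 fold change with its SE (lines) of each receptor (rows) in 0d against WT livers (left) and in Fah-/- and Hdac3-/- tumors against adjacent tissue (right, Fah-/- above), where filled points passed at an adjusted p under 0.05. Nr1i3 and Esr1 lie left of 0 in both panels, and Vdr, filtered out in young livers, lies at 4.16 and 5.11 in the tumors.

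Genes of the receptors' pathways were read from lists chosen with earlier results of these data known. Their counts stand beside shares called over all genes of 37.3% in 0d against WT livers, 26.6%, 31.6% and 25.8% in 7d, 21d and 50d against 0d livers, and 15.3% and 10.3% in Fah-/- and Hdac3-/- tumors against adjacent tissue. Of 12 bile acid genes tested, 7 were lower and 1 higher in 0d than in WT livers, with a median log2 fold change of -1.06. Cyp8b1, the sterol 12-alpha-hydroxylase that FXR and SHP repress, had 3.14 ± 0.999 CPM in 0d livers and 210.2 ± 80.0 CPM in WT livers (SD, n = 3 each; log2 fold change -6.05 ± 1.04 SE). Slc10a1, the bile acid uptake carrier, had 62.5 ± 2.18 CPM in 0d livers and 648 ± 184 CPM in WT livers (-3.37 ± 0.5), and Fgfr4, the receptor of the bile acid signal FGF15, fell by 2.62 on the log2 scale. In 7d, 21d and 50d livers 7, 6 and 6 of the 12 were higher than in 0d livers and 0, 0 and 1 were lower. Cyp8b1 and Fgfr4 rose at all 3 days (Cyp8b1 by 5.43, 6.50 and 4.76, Fgfr4 by 2.04, 2.59 and 2.73 on the log2 scale). In Fah-/- and Hdac3-/- tumors 7 and 4 of the 12 were lower than in adjacent tissue and 0 were higher. Slc27a5, the bile acid-CoA ligase, fell in both (-2.34 ± 0.4 and -2.61 ± 0.4), and Cyp8b1 had 2.76 ± 2.29 CPM in Fah-/- and 2.31 ± 3.15 CPM in Hdac3-/- tumors and 305 ± 193 CPM in adjacent tissue. The Hdac3-/- tumor call of Cyp8b1 was lost without tumor replicate 2 or 3 (-6.43 and -6.66, adjusted p = 0.0502 and 0.0691).

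Xenobiotic genes were split. In 0d against WT livers 6 of 15 were higher and 2 lower. The glutathione transferases Gsta1 and Gstm3 had 686 ± 41.6 and 8034 ± 639 CPM in 0d livers and 2.70 ± 2.01 and 123 ± 52.9 CPM in WT livers (7.98 ± 1.21 and 6.03 ± 0.99), while Cyp2b10, the classical CAR target, had 4.37 ± 0.388 CPM in 0d livers and 98.4 ± 65.7 CPM in WT livers (-4.49 ± 0.77). In tumors the same 2 transferases passed as higher, with Gsta1 at 277 ± 92.4 CPM in Fah-/- and 246 ± 10.5 CPM in Hdac3-/- tumors and 11.6 ± 5.12 CPM in adjacent tissue (4.57 ± 0.43 and 4.40 ± 0.42), and of 14 tested 0 were lower in Hdac3-/- and 1 in Fah-/- tumors. In 50d against 0d livers 8 of 15 were lower and none was higher. Cyp2b9 had 0.397 ± 0.345 CPM in 50d livers and 345 ± 68.5 CPM in 0d livers, and was at 1.14 ± 1.68 CPM in 7d livers (SD, n = 4), all of which carried Y-linked transcripts. Gstm3 in Hdac3-/- tumors (3.33) was lost without adjacent replicate 3 (3.26, adjusted p = 0.0507), and in Fah-/- tumors (1.99) without 7 of the 9 libraries, with 1.5 (adjusted p = 0.0952) without Fah-/- tumor replicate 3.

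Fatty acid genes were mostly lower in 50d than in 0d livers, with 14 of 16 lower and 1 higher and a median of -1.28. In the same comparison Ppard was higher. Angptl4, a lipoprotein lipase inhibitor and a known target of both fatty acid receptors, had 34.0 ± 9.69 CPM in 50d livers, 175 ± 27.2 CPM in 21d, 112 ± 38.2 CPM in 7d and 170.1 ± 7.04 CPM in 0d livers. It fell by 2.33 against 0d, by 2.36 against 21d and by 1.73 against 7d (adjusted p = 0.000137, 0.00109 and 0.00725), and the value against 7d was lost without 50d replicate 1 (-1.51, adjusted p = 0.062). Cyp4a14, a fatty acid hydroxylase driven by PPAR alpha, fell by 2.67, 2.01 and 3.21 at 7, 21 and 50 days against 0d livers. In 0d against WT livers 5 of 16 were higher and 2 lower, with Ehhadh, a peroxisomal oxidation enzyme, at 3871 ± 595 CPM in 0d livers and 502 ± 178 CPM in WT livers, and Fabp1, the liver fatty acid binding protein, at 364 ± 96.7 CPM in 0d livers and 2549 ± 567 CPM in WT livers. In Fah-/- tumors 4 of 16 were higher and 0 lower, and in Hdac3-/- tumors 3 were higher and 1 lower, with the lipid droplet coat Plin2 higher in both (2.35 ± 0.41 and 2.54 ± 0.41).

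Oxysterol genes went both ways in 0d against WT livers, with 4 of 12 higher and 4 lower, Nr1h3 itself included. The sterol exporter Abcg5 had 26.7 ± 2.80 CPM in 0d livers and 104 ± 16.3 CPM in WT livers (-1.96 ± 0.33), while the exporter Abcg1 had 34.6 ± 8.47 CPM in 0d livers and 10.4 ± 5.22 CPM in WT livers (1.74 ± 0.37). Of 11 retinoid genes 2 were higher and 4 lower, with Rbp4, the plasma retinol carrier, at 463 ± 7.70 CPM in 0d livers and 2309 ± 315 CPM in WT livers, and Rarres1, a gene induced by retinoids, higher by 2.30 ± 0.24. Of 10 thyroid hormone genes 3 were higher and 6 lower. Dio1, the deiodinase that is a textbook thyroid hormone target, had 17.6 ± 5.41 CPM in 0d livers and 132 ± 51.6 CPM in WT livers, and Serpina7, which encodes a thyroxine carrier of plasma, had 339 ± 51.7 CPM in 0d livers and 20.4 ± 9.37 CPM in WT livers. Of 12 glucocorticoid and mineralocorticoid genes 5 were lower and 0 higher. Tsc22d3, a direct glucocorticoid receptor target, had 32.2 ± 10.3 CPM in 0d livers and 177 ± 59.1 CPM in WT livers (-2.45 ± 0.36). Hsd11b1, which makes active glucocorticoid, was also lower, with a log2 fold change of -3.53 ± 0.5.

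In tumors the retinoid and thyroid lists held a few large differences. Cyp26a1, the retinoic acid hydroxylase, had 1.70 ± 1.75 CPM in Fah-/- and 3.50 ± 2.36 CPM in Hdac3-/- tumors and 35.1 ± 15 CPM in adjacent tissue (-4.38 ± 0.82 and -3.33 ± 0.77). Dio1 had 2.66 ± 2.40 CPM in Fah-/- and 4.27 ± 4.34 CPM in Hdac3-/- tumors and 144 ± 82.5 CPM in adjacent tissue (-5.74 ± 1.06 and -5.06 ± 1.02), and Serpina7 had 525 ± 347 CPM in Fah-/- and 481 ± 417 CPM in Hdac3-/- tumors and 12.9 ± 3.44 CPM in adjacent tissue (5.33 ± 0.86 and 5.21 ± 0.85). The Hdac3-/- tumor call of Cyp26a1 was lost without tumor replicate 1, 2 or 3 or adjacent replicate 2 or 3 (adjusted p of 0.0623 to 0.0948), and that of Dio1 without tumor replicate 2 or 3 or adjacent replicate 2 (adjusted p of 0.0533 to 0.0827). Of 12 glucocorticoid and mineralocorticoid genes 0 passed in Fah-/- and 1, Dusp1, in Hdac3-/- tumors. Dusp1 is also on the list of immediate early genes. Tat of the glucocorticoid list and Ttr of the thyroid list are also hepatocyte markers, so the lists are not independent.

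**Figure D5:**
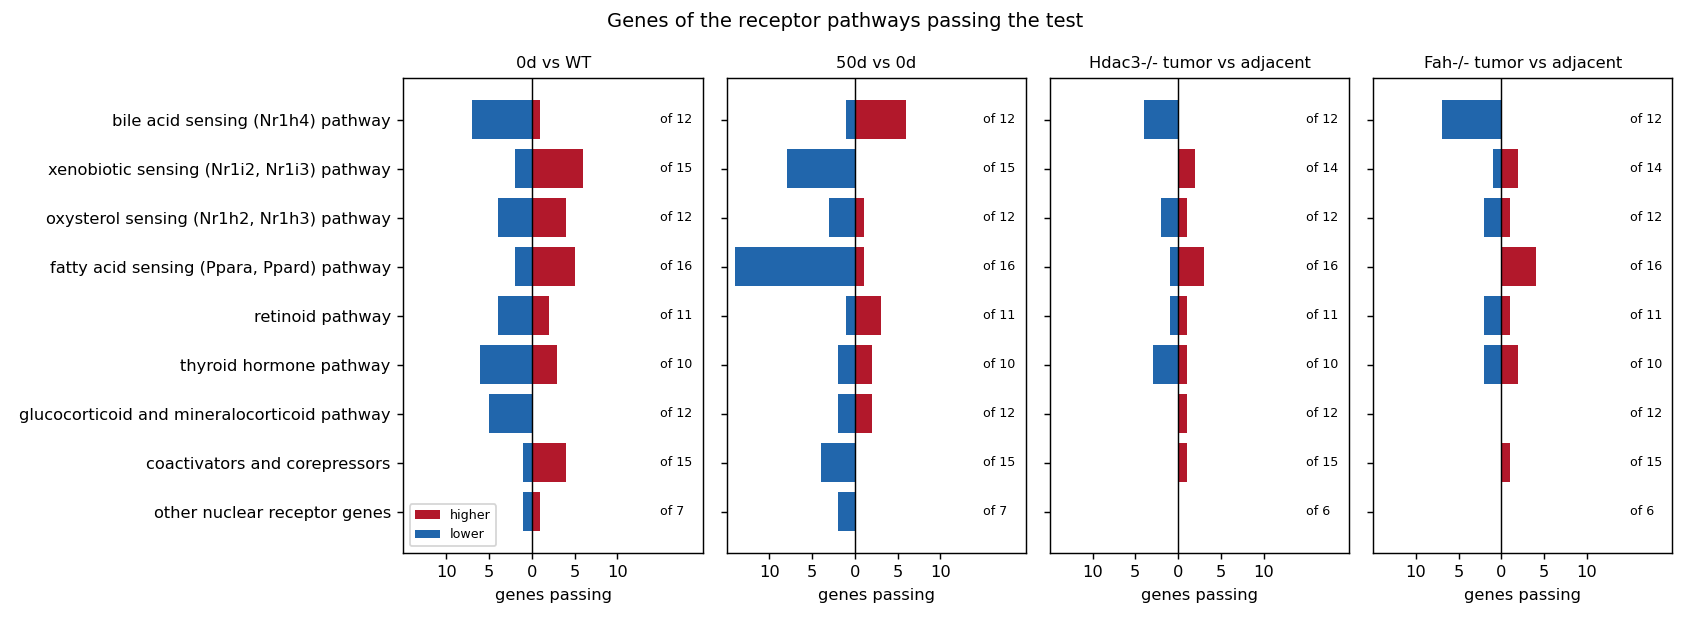
Number of genes of 9 receptor pathway lists that passed as higher (right, red) or lower (left, blue) in 4 comparisons, with the number tested at the right edge. Bars to the left include 14 of 16 fatty acid and 8 of 15 xenobiotic genes lower in 50d against 0d livers, and 7 of 12 bile acid genes lower in 0d against WT livers and in Fah-/- tumors against adjacent tissue.

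Other receptors and the proteins that work with them were read the same way. Of 7 nuclear receptor genes outside the 31 that were tested in young livers, Esrrg was lower in 0d livers, at 0.0859 ± 0.0854 CPM in 0d livers and 2.61 ± 1.90 CPM in WT livers (-4.74 ± 0.85), and Pparg, the receptor of fat storage, was higher at 15.4 ± 1.86 CPM in 0d livers and 9.21 ± 1.51 CPM in WT livers (0.74 ± 0.24, adjusted p = 0.0256). Pparg was lost without WT replicate 3 (0.61, adjusted p = 0.102) or 1 (0.79, 0.0528) and without 0d replicate 1 (0.74, 0.0599) or 2 (0.63, 0.0952). Hnf4a, the hepatocyte receptor, had 543 ± 21.6 CPM in 0d livers and 809 ± 148 CPM in WT livers and did not pass. In 50d against 0d livers the clock receptor Nr1d2 was lower, at 12.9 ± 7.24 CPM in 50d livers and 58.9 ± 2.82 CPM in 0d livers (-2.20 ± 0.42). In older tissues 0 of 6 passed in either tumor comparison.

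Of 15 coactivators and corepressors, 4 were higher and 1 lower in 0d than in WT livers, where 37.3% of all genes passed. The list includes Hdac3, the gene named in the genotype, whose whole-gene count does not check the deletion. The list's median log2 fold change was 0.18, against 0.00 over all genes. Tbl1x, a subunit of the NCoR complex, had 50.3 ± 7.10 CPM in 0d livers and 10.3 ± 6.45 CPM in WT livers (2.28 ± 0.55), and Ppargc1a, the coactivator PGC-1 alpha, had 3.35 ± 0.575 CPM in 0d livers and 15.9 ± 7.03 CPM in WT livers (-2.24 ± 0.4). The scaffold Ncor1 had 115 ± 8.20 CPM in 0d livers and 102 ± 2.48 CPM in WT livers and did not pass. Tbl1x fell by 2.54, 2.46 and 1.88 in 7d, 21d and 50d against 0d livers. The 50d value was lost without 0d replicate 1 (-1.76, adjusted p = 0.0597) and without 50d replicate 1 or 3 (-1.54 and -1.59, adjusted p = 0.084 and 0.0883). In tumors Tbl1xr1, its close relative, was the 1 gene of the list that passed, at 47.4 ± 4.19 CPM in Fah-/- and 49.2 ± 2.76 CPM in Hdac3-/- tumors and 25.6 ± 1.65 CPM in adjacent tissue (0.88 ± 0.2 and 0.94 ± 0.2). The Hdac3-/- call of Tbl1xr1 was lost without any 1 of the 6 libraries compared (adjusted p of 0.0511 to 0.0937), and the Fah-/- call without adjacent replicate 2 or 3 (0.0662 and 0.0712).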

How the data were processed

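Per the labels' protocols, frozen liver gave RNA by Trizol and the kit was Illumina TruSeq RNA. HISAT and Bowtie2, without versions, and the build mm10 are named in the submitters' processing notes, and the sources used here do not give the counting tool. Each deposited table gives an expected count per gene, an estimate that need not be whole, and per the file headers an FPKM, which the authors scaled by length and depth. A deposited gene length was used only to describe genes. Of 19638 gene IDs, 19573 matched RefSeq symbols of GRCm38.p6, and a gene not listed in a library was set to 0.

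Counts were rounded and fitted with edgeR 4.0.16 (filterByExpr, TMM, 2-sided quasi-likelihood F-test, Benjamini-Hochberg over all genes tested, threshold 0.05), the 17 young livers together and the 9 older tissues together. CPM by library were scaled over all 26 libraries. Alternatives were DESeq2 1.42.0, limma-trend (limma 3.58.1) on log2(FPKM + 1), other scalings and filters, only the groups compared, a replicate block, Y-linked transcripts as a covariate, and leaving out each library. The labels give equal replicate numbers without saying that they mark a shared animal or day. Deviations of equally numbered libraries correlated at -0.305 to 0.443, in no comparison all above 0.1, so numbers were not used as pairs. Adjacent and tumor libraries may come from the same mice under other numbers, which the labels do not say and this check cannot show. The reported tests treated them as unpaired. Replicate pairs all differed by more than counting error, with chi-square over its degrees of freedom of 7.25 to 271.38.

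The receptors and all gene lists were chosen with earlier results of these data known. Besides the receptors, the rule for named genes took Hdac3, the other nuclear receptor genes and, per pathway list and comparison, up to 4 genes with the smallest adjusted p. Fah and Ncor1 were added after their values were seen. Tests ran in R 4.3.3; summaries and figures used Python 3.11.15, pandas 2.3.3, numpy 2.4.6 and matplotlib 3.10.9.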

Additional observations from a re-analysis of the deposited data

Results flagged for a closer look

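In the groups of 4 libraries, 62 gene and group pairs were examined for a library far from the other 3, of which chance marks about 1 in 20, and 5 were marked. Rxrb in 7d replicate 1 was 30.7 CPM, where the others had 26 to 26.8 CPM. Rara in 7d replicate 4 was 47.3 CPM, where the others had 40 to 40.3 CPM. Esrra in 7d replicate 2 was 36.3 CPM, where the others had 28.1 to 28.7 CPM. In 21d replicate 3, Nr2f6 was 39.9 CPM, where the others had 68.1 to 73.4 CPM, and Nr4a1 was 2.44 CPM, where the others had 11.7 to 12.5 CPM.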

How the results depend on the processing

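No called receptor changed direction: of 1226 values of single called receptors over all alternatives, 1077 stayed past the threshold, 149 did not and 0 reversed, and of 4465 values of pathway genes 4040 stayed, 425 did not and 0 reversed. Leaving out each library in turn gave these numbers of called receptors: 0d against WT 9 to 13, 7d against 0d 4 to 9, 21d against 0d 5 to 9, 50d against 0d 6 to 9, 21d against 7d 0 to 0, 50d against 7d 1 to 1, 50d against 21d 1 to 2, Hdac3-/- tumor against adjacent 1 to 7, Fah-/- against Hdac3-/- tumor 0 to 0, and Fah-/- tumor against adjacent 2 to 7. Fitting only the groups compared gave 15 in 50d against 0d, 0 in 50d against 7d, 4 in 50d against 21d, 8 in Hdac3-/- tumor against adjacent and 4 in Fah-/- tumor against adjacent. DESeq2 gave 3 in 50d against 21d and 8 in Hdac3-/- tumor against adjacent. In Fah-/- tumor against adjacent, library totals gave 5 and Y-linked transcripts as a covariate gave 5. The cause of these changes was not tested.

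With replicate numbers as a block, which the libraries did not bear out as pairs, the counts of called receptors were 13, 8, 8 and 8 in 0d against WT and in 7d, 21d and 50d against 0d, 0, 1 and 1 in 21d against 7d, 50d against 7d and 50d against 21d, and 5, 0 and 8 in Hdac3-/- tumor against adjacent, Fah-/- against Hdac3-/- tumor and Fah-/- tumor against adjacent.

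Library totals shifted the median of all genes by 0.30 in 0d against WT, where 69.7% of calls were then higher, by -0.13 to -0.21 in the later days against 0d (38.0%, 35.2% and 39.3% higher), by 0.20 in Hdac3-/- tumor against adjacent (65.3%) and by 0.26 in Fah-/- tumor against adjacent (70.6%). Over all genes, these settings moved counts by more than 1.5 times. With only the groups compared 50d against 0d gave 5697 (3507 in the fit reported), 50d against 7d 14 (60), 50d against 21d 226 (60), Hdac3-/- tumor against adjacent 2437 (1354) and Fah-/- tumor against adjacent 1209 (2013). With DESeq2 21d against 7d gave 65 (0), Fah-/- against Hdac3-/- tumor 41 (0), 50d against 7d 232, 50d against 21d 263 and Hdac3-/- tumor against adjacent 2392. The replicate block gave 37 in 50d against 21d, and the Y-linked covariate 1115 in Fah-/- tumor against adjacent. Leaving out 1 library also moved the shares called over all genes, with counts of 3752 to 5475 in 0d against WT (5082 with all libraries), 1752 to 4134 in 7d against 0d (3627), 2485 to 5116 in 21d against 0d (4303), 1998 to 3977 in 50d against 0d, 0 to 13 in 21d against 7d (0), 21 to 108 in 50d against 7d, 7 to 110 in 50d against 21d, 290 to 2187 in Hdac3-/- tumor against adjacent, 0 to 1 in Fah-/- against Hdac3-/- tumor (0) and 719 to 1941 in Fah-/- tumor against adjacent. The lowest counts were without 0d replicate 1 at 7 and 21 days, without 50d replicate 3 in 50d against 0d and 50d against 21d, without 50d replicate 1 in 50d against 7d, and without Hdac3-/- tumor replicate 2 and adjacent replicate 3 in Hdac3-/- and Fah-/- tumor against adjacent. Genes at a few counts, such as Vdr in adjacent tissue, are limited by depth.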
